A study of Mus musculus with 12 samples.

Results

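The complement system is described here through 10 genes of its classical and lectin pathways in mouse cortex: C1qa, C1qb, C1qc, C1ra, C1s1, Masp1, C3, C4b, Serping1 and C3ar1. They were picked by name from the 54232 genes of the count table, through the GENCODE M21 gene identifiers, and all 10 were found and passed the filter on low counts. The choice was made with results of the mutant against wild-type contrast in view, among them the low C1ra of the mutants, so the values of that contrast are a description of these genes and support nothing beyond it.

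The mice were C57BL/6J, 12 weeks old, and 12 in number. Of them, 6 were homozygous for the Y446C allele of Tbl1xr1 (3 females and 3 males) and 6 were wild type (3 females and 3 males). Its protein belongs to the NCoR corepressor, and the allele is the one known from Pierpont syndrome; the labels name no Cre driver or tissue restriction and no treatment. The frozen cortex of each mouse gave 1 library of messenger RNA, so each value pools every cell type of the tissue.

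Complement is a cascade of plasma and tissue proteins that tags surfaces for removal. In the classical pathway the C1q proteins bind a target and activate the serine proteases C1r and C1s, of which C1s cleaves C4. In the lectin pathway the family of MASP proteases, carried by sugar-binding lectins, leads to the same cleavage. Both lead to cleavage of C3, the C1 inhibitor encoded by Serping1 blocks the proteases, and the C3a fragment is sensed by the receptor C3AR1. In the brain, C1q is made mainly by microglia, and C1q and C3 are known for marking synapses that microglia remove.

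One library stood apart before any comparison. Female mutant 3 held 3748515 counts in all, with 31.6% of them from mitochondrial genes, against totals of 21238427 to 32669138 and mitochondrial shares of 5.23% to 10.4% in the other 11 libraries. A gene with 0 counts could have had up to 1.16 CPM (counts scaled to a common library total) in female mutant 3 and up to 0.0860 to 0.136 CPM in the others, from counting error only. The 10 genes held 0 to 41 counts each in female mutant 3 and 14 to 919 counts in the others. Of the 10 genes, 7 had their lowest mutant value in this library, and the main results are therefore given with and without it.

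By level, the 3 C1q genes led. Per kilobase of exon in the 6 wild-type mice, C1qa stood at 20.5 ± 2.03 CPM per kilobase, C1qb at 18.1 ± 1.32 and C1qc at 9.69 ± 1.29 (SD, n = 6 for each gene). C4b followed at 2.93 ± 0.482 CPM per kilobase, then Serping1 at 1.73 ± 0.493, Masp1 at 1.51 ± 0.176 and C1ra at 0.854 ± 0.111. C3ar1 at 0.564 ± 0.129, C1s1 at 0.420 ± 0.0799 and C3 at 0.183 ± 0.0596 CPM per kilobase came last. The wild-type ranges of neighbours in this order overlapped for C1qa and C1qb, for Serping1 and Masp1, for C1ra and C3ar1, and for C3ar1 and C1s1. Both genes of a pair were measured in the same mice, and their order within each mouse was not compared. With the length of the longest transcript in place of all exons, C1qc stood at 15.5 and Masp1 at 2.78 CPM per kilobase, Masp1 came ahead of Serping1, and the other 8 places were kept.

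**Figure D1:**
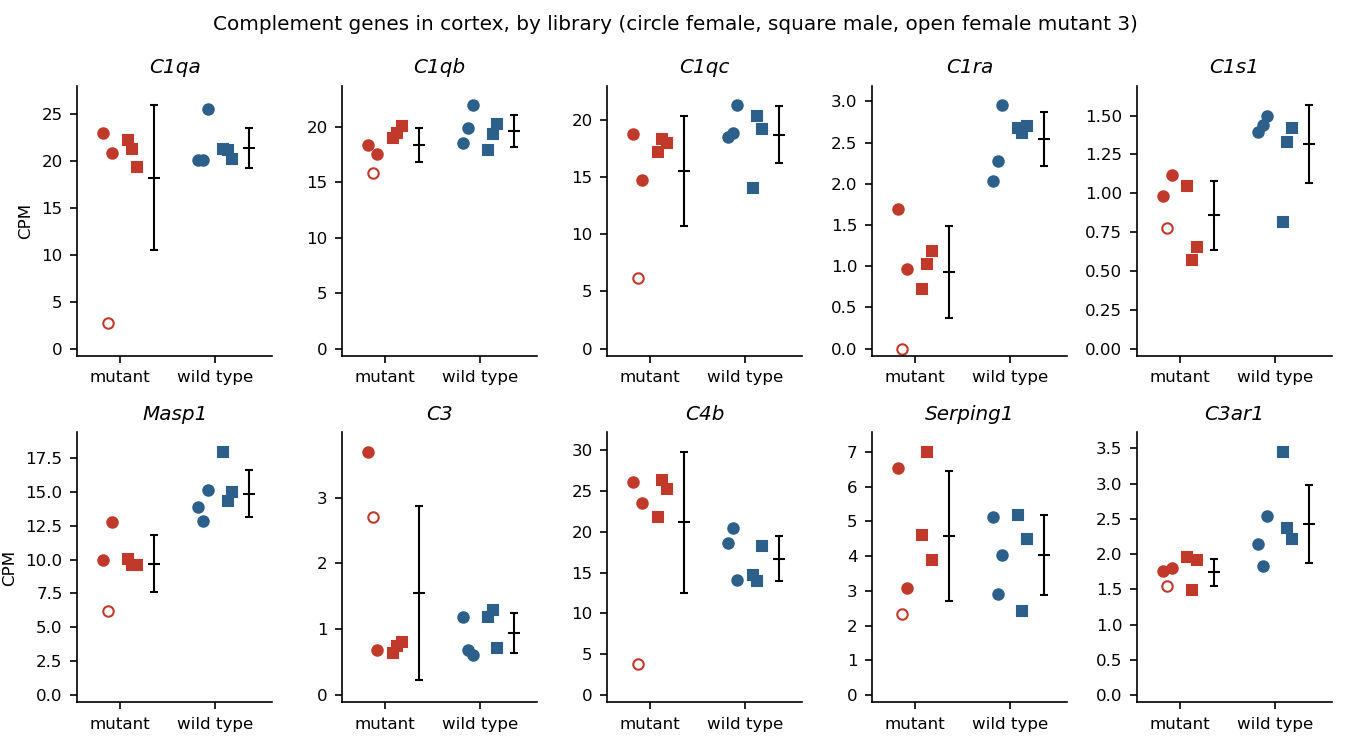
CPM (vertical axis, linear from 0) of each of the 10 genes in every library, with mutants on the left (red) and wild type on the right (blue), females as circles, males as squares and female mutant 3 as an open circle; bars give the mean and SD over 6 mice. For C1ra all 6 mutants lie at or below 1.69 CPM and all 6 wild-type mice at or above 2.04 CPM, whereas C1qa and C1qc differ between the groups mainly through female mutant 3.

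The recognition genes C1qa, C1qb and C1qc lie side by side on the minus strand of chromosome 4, within 18675 bases (chr4:136880129-136898803, GRCm38). They encode the 3 chains that assemble into the C1q molecule. The stretches before the starts of C1qb and C1qc are shown because these neighbours encode chains of 1 protein; the capitals mark matches to GAGGAA, the core bound by ETS factors, and in C1qc to the longer GAGGAAGT, the letters of a site for the myeloid factor PU.1, which reads as ACTTCCTC on the printed strand.
C1qb (chr4:136886201-136886450, minus strand): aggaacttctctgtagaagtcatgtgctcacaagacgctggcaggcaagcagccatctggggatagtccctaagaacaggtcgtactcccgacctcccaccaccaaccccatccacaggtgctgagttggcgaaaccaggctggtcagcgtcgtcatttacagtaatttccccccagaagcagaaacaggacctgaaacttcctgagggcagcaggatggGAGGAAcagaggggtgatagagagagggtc
C1qc (chr4:136893066-136893164, minus strand): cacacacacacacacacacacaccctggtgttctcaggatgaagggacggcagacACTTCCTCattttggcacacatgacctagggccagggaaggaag

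These sequences come from the RefSeq promoter windows of GRCm38.p6 (250 bases before to 50 after the start), in which 6 of the 10 genes had an entry: C1qb, C1qc, C1ra, C1s1, C3 and C3ar1. On either strand, GAGGAAGT was present in 3.20% of all 32851 windows and GAGGAA, which it contains, in 28.3%. Among the 6 genes GAGGAAGT was found in C1qc, and GAGGAA in C1qb, C1qc and C1ra. Of the other letters searched, TATAAA (13.6% of all windows) was found in C3 and C3ar1. TTGCNNAA, a C/EBP form (10.8%), was found in C1ra, C1s1 and C3, and TTCNNNGAA, a STAT form (8.30%), in C1ra. ATTGG, the reverse of the CCAAT box (37.4%), was in none of the 6. A match of letters is a description of the window and not of binding.

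With female mutant 3 set aside, C1qa, C1qb and C1qc differed between mutant and wild-type cortex by less than the spread between mice. Over all 12 libraries, C1qb had 15.9, 18.7 and 20.1 CPM as its lowest, median and highest mutant value, against 17.9, 19.7 and 21.95 CPM in wild type. The lowest mutant value was that of female mutant 3 and the next was 17.6 CPM. The groups overlapped, and the fitted log2 fold change, mutant over wild type, was -0.09 (SE 0.08), and -0.06 (SE 0.07) without female mutant 3. C1qb averaged 18.9 ± 0.979 CPM in the 5 other mutants and 19.7 ± 1.43 CPM in 6 wild-type mice (SD), and C1qc 17.4 ± 1.57 CPM and 18.7 ± 2.49 CPM in the same groups. C1qa had 2.71, 20.99 and 22.98 CPM in mutants, against 20.03, 20.7 and 25.5 CPM in wild type. The value of 2.71 CPM, from 7 counts, belonged to female mutant 3, and the next mutant stood at 19.3 CPM, just below the lowest wild-type mouse. C1qa therefore averaged 18.2 ± 7.69 CPM in 6 mutants and 21.3 ± 1.41 CPM in the 5 other than female mutant 3, against 21.4 ± 2.11 CPM in 6 wild-type mice (SD).

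C1qc repeated this order, with 6.19, 17.6 and 18.7 CPM in mutants, against 14.1, 19.04 and 21.3 CPM in wild type. Its lowest mutant value was again that of female mutant 3. The log2 fold changes were -0.16 (SE 0.26) for C1qa and -0.22 (SE 0.18) for C1qc over 12 libraries, and 0.0016 (SE 0.08) and -0.10 (SE 0.10) without female mutant 3. None of the 3 genes was called by edgeR's quasi-likelihood test (adjusted p = 0.950 to 0.954 over 12 libraries).

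Outside female mutant 3 the log2 differences between the 3 chains stayed within narrow ranges. Each chain also varied little there by itself, with coefficients of variation of 5.18% to 13.3% within a genotype. On the log2 CPM scale, C1qa minus C1qb was -0.06 to 0.32 in the 5 other mutants and -0.01 to 0.25 in the wild type, but -2.51 in female mutant 3. C1qc minus C1qb was -0.25 to 0.02 in the 5 other mutants and -0.34 to 0.07 in the wild type, and -1.35 in female mutant 3. The chains are subunits of 1 protein, yet in female mutant 3 C1qb (41 counts) stood near its level in other mice and C1qa (7 counts) far below it.

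The departures of female mutant 3 moved with base composition across all genes. Relative to the median of the other mutants, the 4499 genes lowest in GC content had a median deviation of 0.55 (log2) in this library and the 4499 highest in GC content of -1.22, and Spearman's rho between deviation and GC content was -0.520 across 17995 genes, which are not independent replicates. C1qa transcripts hold 59.5% GC and deviated by -2.93, those of C4b hold 55.3% and deviated by -2.68, and those of C1qc hold 57.5% and deviated by -1.53. C1qb, with 57.4% GC, deviated by -0.26, and C3, with 53.3% GC, by 1.75, so the 10 genes did not all follow the course of all genes. The part of base composition in the values of this library was not tested.

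**Figure D2:**
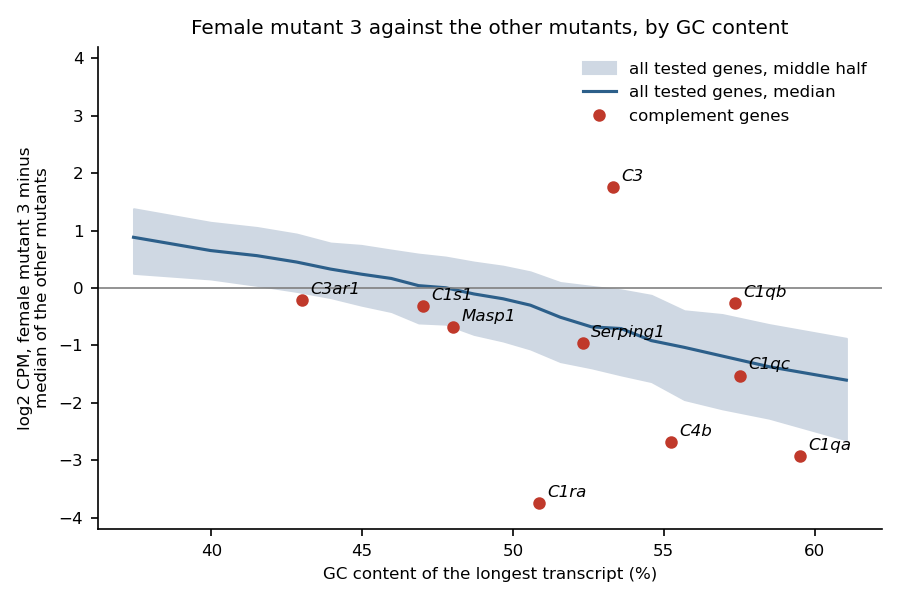
Deviation of female mutant 3 from the median of the other 5 mutants (vertical axis, log2 CPM) against the GC content of the longest transcript (horizontal axis, percent); red points are the 10 complement genes, the line is the median of all tested genes in 20 bins of GC content and the band their middle 50%. C1qa, C4b and C1ra lie below the band, C3ar1 and Masp1 at or just below its lower edge, and C3 and C1qb above it; C1ra had 0 counts in this library.

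Of the 10 genes, the proteases had the 3 lowest fitted differences. C1ra, which encodes the C1r protease that activates C1s, had 0, 0.996 and 1.69 CPM as its lowest, median and highest mutant value, against 2.04, 2.65 and 2.95 CPM in wild type. Every mutant library lay below every wild-type library, which held for 0.294% of the 18016 genes tested and, without female mutant 3, for 0.599%. The mean was 0.933 ± 0.559 CPM in mutants and 2.54 ± 0.330 CPM in wild type (SD, n = 6 each), and the fitted level in mutants was 0.422 of that in wild type (log2 fold change -1.24, SE 0.26). After adjustment over all genes, edgeR's quasi-likelihood test gave C1ra an adjusted p = 0.577. The log2 fold change was -1.17 (SE 0.20; edgeR adjusted p = 0.136) in the fit without female mutant 3. In whole cortex, fewer cells that make a transcript and less of it per cell cannot be told apart.

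The depth behind C1ra was small. It rested on 16 to 43 counts in the mutants other than female mutant 3 and on 57 to 73 counts in the wild-type mice. The 0 of female mutant 3 allows up to 1.16 CPM, which covers 3 of the other mutant values (0.728, 0.961 and 1.03 CPM) and not the remaining pair, 1.19 and 1.69 CPM. DESeq2 called C1ra (adjusted p = 1.97e-04) and so did limma-voom with library weights (adjusted p = 0.0493). Without female mutant 3, DESeq2 called it (adjusted p = 3.83e-04) and the weighted fit did not (adjusted p = 0.0693), while edgeR called none of the 10 genes when any 1 of the 12 libraries was left out.

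C1ra has a near copy, C1rb, 27934 bases beyond C1s1 on chromosome 6. Its transcript is identical to that of C1ra at 2380 of 2429 aligned bases, and 42.4% of the 75-base windows of C1ra are also found in C1rb or in the pseudogene Gm18840. C1rb was listed at 0 CPM in all 6 mutants and averaged 0.0354 CPM in wild type, and Gm18840 was listed at 0 in every library. Summed over the 3 genes the level was 0.933 ± 0.559 CPM in mutants and 2.58 ± 0.329 CPM in wild type (SD, n = 6 each), as for C1ra alone. The level of C1ra itself is uncertain, because the treatment of reads that match both copies is not given in the sources used here. The likeness extends to the first exon annotated by GENCODE, where 30 bases of each gene are shown, all exonic in C1ra and 28 of them exonic in C1rb; capitals mark TTATGCAA, the reverse of TTGCNNAA, and TTCCCTGAA, a match to TTCNNNGAA.
C1ra (chr6:124512634-124512663, plus strand): tgtTTATGCAAatgcttcaTTCCCTGAAac
C1rb (chr6:124570292-124570321, plus strand): cctTTATGCAAatgcttcaTTCCCTGAAac
Of these 30 bases 28 are identical, and both matches stand at the same places within them. Relative to the RefSeq start sites the stretches differ, since that of C1ra lies after its start (124512621) and that of C1rb before its start (124570430).

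C1s1 encodes the C1s protease that cleaves C4, and lies 6901 bases from C1ra on the other strand (chr6:124530345-124542359). It had 0.573, 0.878 and 1.12 CPM in mutants, against 0.817, 1.41 and 1.496 CPM in wild type. The groups overlapped through male wild type 8 at 0.817 CPM alone; the other 5 wild-type mice stood at 1.33 CPM or above, beyond every mutant. The log2 fold change was -0.59 (SE 0.21; edgeR adjusted p = 0.950) over 12 libraries and -0.57 (SE 0.21; edgeR adjusted p = 0.554) without female mutant 3, in which C1s1 had 2 counts. C1s1 shares 24.8% of its 75-base windows with C1s2 and Gm16567, of which Gm16567 also overlaps it on the other strand and was listed at 0. With both added, the level was 1.17 ± 0.293 CPM in mutants and 1.64 ± 0.301 CPM in wild type (SD, n = 6 each).

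Masp1 encodes lectin pathway proteases that arise from 1 gene by alternative splicing, which counts per gene do not separate (chr16:23449417-23520815). It had 6.19, 9.79 and 12.8 CPM in mutants, against 12.8, 14.6 and 17.9 CPM in wild type. Each mutant lay below each wild-type mouse, but narrowly: female mutant 6 (12.77 CPM) stood next to female wild type 4 (12.81 CPM). Such a separation held for 0.294% of the 18016 genes tested and, without female mutant 3, for 0.599%. The mean was 9.70 ± 2.096 CPM in mutants and 14.8 ± 1.73 CPM in wild type (SD, n = 6 each). The log2 fold change was -0.57 (SE 0.13; edgeR adjusted p = 0.710), and -0.51 (SE 0.10; edgeR adjusted p = 0.271) without female mutant 3. DESeq2 called Masp1 with and without female mutant 3 (adjusted p = 0.0160 and 0.00806), and the weighted fit called it with that library (adjusted p = 0.0313) and not without it (adjusted p = 0.0524). Unlike C1ra and C1s1, Masp1 shares no 75-base window with another gene and overlaps no exon of one.

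**Figure D3:**
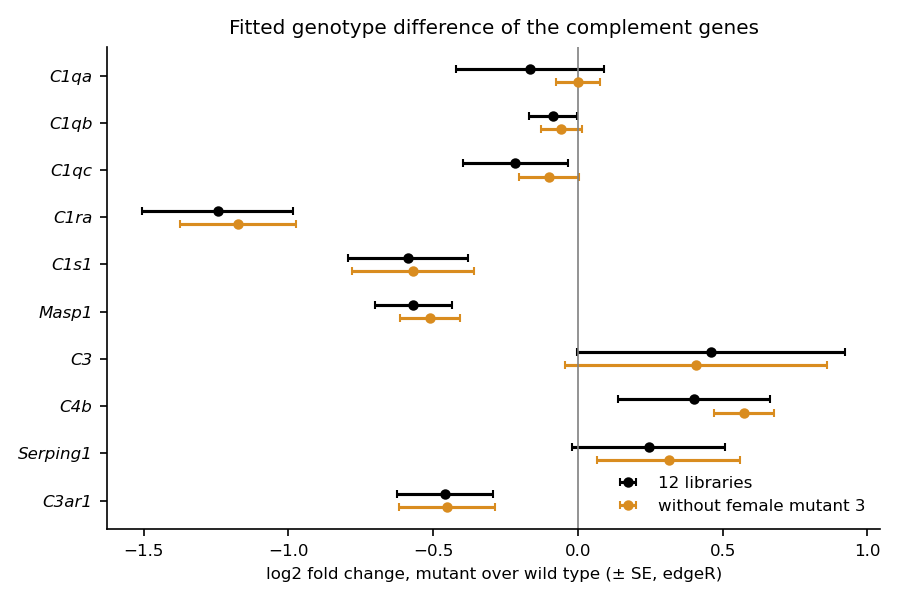
Fitted log2 fold change, mutant over wild type (horizontal axis), of each of the 10 genes, with bars of 1 SE derived from edgeR's F statistic. Black is the fit over 12 libraries and orange the fit without female mutant 3. C1ra lies lowest at -1.24 and -1.17, and C4b moves to 0.57 with a smaller SE when female mutant 3 is left out.

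The substrates C4b and C3 did not share a direction with the proteases. C4b encodes C4, a protein cleaved in both the classical and the lectin pathway (chr17:34728380-34743882). It had 3.87, 24.4 and 26.3 CPM in mutants, against 13.998, 16.5 and 20.4 CPM in wild type. Female mutant 3 held the lowest value of all, from 10 counts, whereas the other 5 mutants, at 21.8 CPM or above, lay above every wild-type mouse, which held for 0.477% of genes without that library and for 0.144% with it. The mean was 21.1 ± 8.63 CPM in 6 mutants, 24.6 ± 1.92 CPM in the 5 others and 16.7 ± 2.75 CPM in 6 wild-type mice (SD). Over 12 libraries the log2 fold change was 0.40 (SE 0.26; edgeR adjusted p = 0.950). In the fit without female mutant 3 it was 0.57 (SE 0.10; edgeR adjusted p = 0.174), and DESeq2 then called C4b (adjusted p = 6.19e-04), though not with all 12 libraries (adjusted p = 0.915).

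C4b has a near copy in C4a, with 96.1% identity between the transcripts and 22.7% of 75-base windows shared. C4a alone stood at 1.70 ± 0.288 CPM in the 5 mutants other than female mutant 3 and at 1.70 ± 0.303 CPM in the 6 wild-type mice. The sum of both genes was 26.3 ± 1.98 CPM in those mutants and 18.4 ± 2.60 CPM in wild type (SD), and their ranges did not overlap (lowest mutant 23.3 CPM, highest wild type 21.9 CPM). The difference between the 2 groups thus lay in reads assigned to C4b.

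The distance between C4b and C1ra was wider in mutants. C4b exceeded C1ra by 4.60 ± 0.56 on the log2 CPM scale in 6 mutants, by 4.40 ± 0.33 in the 5 other than female mutant 3 and by 2.67 ± 0.39 in 6 wild-type mice (SD). The lowest of those 5 mutants, at 3.88, lay above the highest wild-type mouse at 3.14. Outside female mutant 3 this follows from the separate differences of both genes, given above, and adds nothing to them. The value of female mutant 3, 5.58, came from 0 counts of C1ra and 10 of C4b and depends on the prior count.

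C3 encodes the protein on which all complement pathways converge, and was the member with the lowest level per kilobase and the largest relative spread (chr17:57203970-57228136). It had 0.637, 0.776 and 3.69 CPM in mutants, against 0.606, 0.945 and 1.29 CPM in wild type. Female mutant 1 (3.69 CPM, from 94 counts) and female mutant 3 (2.71 CPM, from 7 counts) were the high libraries, and the other 4 mutants lay between 0.637 and 0.806 CPM, inside the wild-type range. The coefficient of variation was 85.5% in mutants and 32.6% in wild type. The log2 fold change of 0.46 (SE 0.46; edgeR adjusted p = 0.950) turned to -0.18 when female mutant 1 was left out. It was 0.41 (SE 0.45) without female mutant 3, 0.29 without female wild type 4 and 0.27 without female wild type 5.

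Serping1, the gene of the C1 inhibitor, did not separate the groups (chr2:84765387-84775444). It had 2.32, 4.24 and 6.99 CPM in mutants, against 2.41, 4.26 and 5.18 CPM in wild type, and the log2 fold change was 0.25 (SE 0.26; edgeR adjusted p = 0.950), and 0.31 (SE 0.25) without female mutant 3. It was 0.052 without female mutant 1, 0.10 without male mutant 10 and 0.11 without male wild type 12. The wild-type values lay inside the mutant range.

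C3ar1, the receptor of the C3a fragment and in brain mainly a gene of microglia and macrophages, also had lower values in mutants (chr6:122847138-122856161). It had 1.49, 1.78 and 1.96 CPM in mutants, against 1.84, 2.29 and 3.45 CPM in wild type. Only female wild type 4, at 1.84 CPM, reached into the mutant range. The log2 fold change was -0.46 (SE 0.17; edgeR adjusted p = 0.950) over 12 libraries and -0.45 (SE 0.17; edgeR adjusted p = 0.553) without female mutant 3, which had 4 counts of it.

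As a family the 10 genes had no common direction. With edgeR's quasi-likelihood test 0 of 10 passed the adjusted threshold of 0.05, against 0.00555% of the 18016 genes tested, and 0 of 10 without female mutant 3, against 0.0108% of 18461. At an unadjusted p under 0.05 there were 4 (C1ra, Masp1, C1s1 and C3ar1, all lower), against 3.96% of all genes, and without female mutant 3 these and C4b, against 7.46%. Fitted values were below 0 for 7 of 10, against 52.4% of all genes, and for 6 of 10 without female mutant 3, against 49.1%. The median log2 fold change was -0.19 for the 10 genes and -0.01 for all genes, and -0.08 and 0.0023 without female mutant 3. DESeq2 called 2 of 10 (0.161% of all genes) and limma-voom with library weights 2 of 10 (0.122%), C1ra and Masp1 in each. Without female mutant 3, DESeq2 called 3 of 10 (0.293%) and the weighted fit 0 of 10 (0.0217%). Since the genes were chosen with this contrast known, nothing is read from these shares.

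The contrast that the choice of genes did not use was sex. The difference of the genotype effect between the sexes was read beside it. That difference is built from the mutant and wild-type values that were in view, so it is a description only. For male over female, 0 of 10 passed edgeR's test (adjusted p = 0.897 to 0.991, against 0.0389% of all genes called) and 0 of 10 had an unadjusted p under 0.05 (1.77% of all genes). Without female mutant 3, 0 of 10 passed, against 0.0433% of all genes, and 0 of 10 had an unadjusted p under 0.05 (2.67%). DESeq2 and limma-voom with library weights also called 0 of 10 for sex, against 0.0668% and 0.0555% of all genes. For the difference of effects they called 0 of 10 as well, against 0.0222% and 0.00555% of all genes. The fitted sex differences ran from -0.62 (SE 0.46) for C3 to 0.17 (SE 0.17) for C3ar1 on the log2 scale. For the genotype effect in males minus that in females, 0 of 10 passed (adjusted p = 0.555 to 0.862), against 0% of all genes, and 1 of 10 had an unadjusted p under 0.05, against 7.67% of all genes. Leaving out female mutant 3, 0 of 10 passed and 2 of 10 (C3 and Masp1) had an unadjusted p under 0.05, against 10.6% of all genes.

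The gene in both fits was C3. Its values were 3.69, 2.71 and 0.682 CPM in female mutants, against 1.18, 0.678 and 0.606 CPM in female wild-type mice. In males they were 0.637, 0.745 and 0.806 CPM in mutants, against 1.18, 1.29 and 0.710 CPM in wild type. The female values overlapped and so did the male values, and the difference of effects was -1.97 (SE 0.76; edgeR adjusted p = 0.555). The high female side rested on female mutants 1 and 3.

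C1ra was low in mutants of both sexes. Female mutants had 1.69, 0 and 0.961 CPM, against 2.04, 2.27 and 2.95 CPM in female wild-type mice, and male mutants had 0.728, 1.03 and 1.19 CPM, against 2.68, 2.62 and 2.71 CPM in male wild-type mice. The male wild-type mice lay closest together, and no sex showed an overlap between genotypes. The effect was -1.04 (SE 0.38) in females and -1.42 (SE 0.36) in males, and their difference of -0.38 (SE 0.53) did not pass edgeR's test (adjusted p = 0.742).

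Masp1 showed the same order with a smaller step. Female mutants had 9.98, 6.19 and 12.8 CPM, against 13.9, 12.8 and 15.2 CPM in female wild-type mice, and male mutants had 10.1, 9.60 and 9.60 CPM, against 17.9, 14.3 and 14.9 CPM in male wild-type mice. The effect was -0.43 (SE 0.19) in females and -0.69 (SE 0.18) in males. Without female mutant 3 the difference of effects was -0.40 (SE 0.18), with an unadjusted p of 0.0494 and an adjusted p of 0.470 in edgeR's test.

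The cell types that make complement in the brain were read through lists of marker genes, each given as mean log2 CPM. The 15 microglia markers, whose cells make C1q, averaged 3.80 ± 0.39 in 6 mutants, 3.96 ± 0.06 in the 5 other than female mutant 3 and 3.98 ± 0.05 in 6 wild-type mice (SD). Of the 15 markers, 12 were lower in mutants over 12 libraries and 10 without female mutant 3. Their summed level ran from 319.6 to 390.3 CPM in mutants and from 361.1 to 396.6 CPM in wild type. The lowest mutant sum was that of female mutant 3, and the next was 355.8 CPM. No marker of any list was at 0 in every library. Relative to this list, C1qa, C1qb and C1qc differed between the 5 other mutants and the wild type by 0.02, -0.03 and -0.07 on the log2 scale. The C1q genes and the microglia markers were thus alike in showing little difference between the groups outside female mutant 3. C3ar1 lay 0.38 lower in those mutants relative to the same list, and C1ra 1.14 lower.

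**Figure D4:**
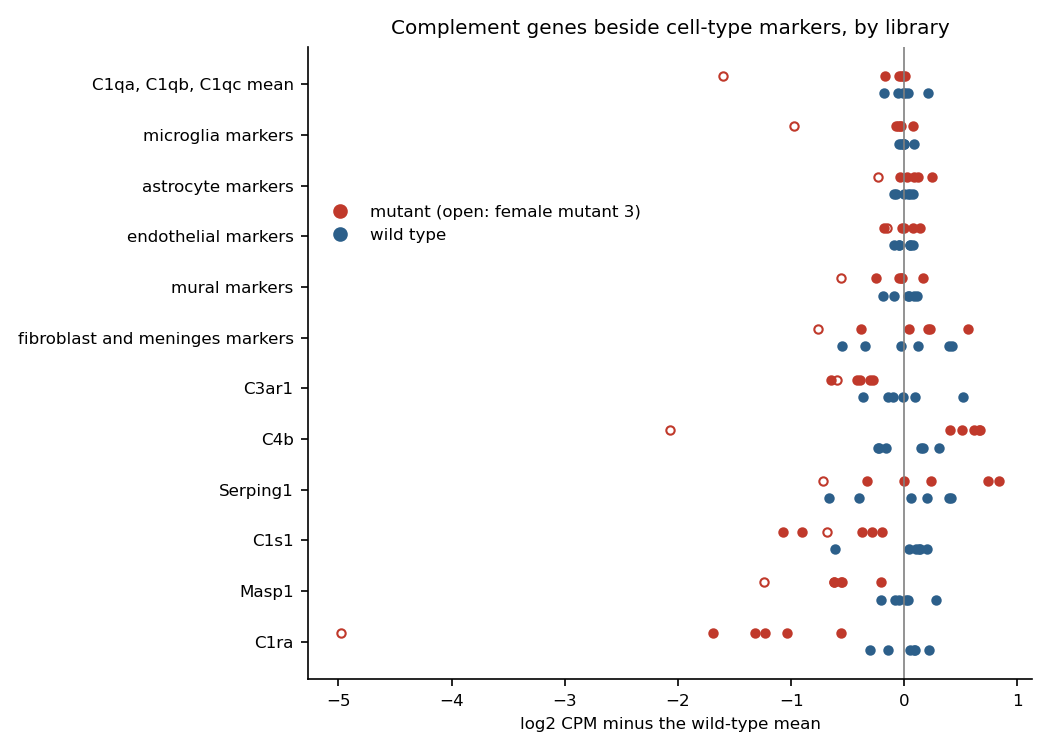
Log2 CPM minus the wild-type mean (horizontal axis) for the mean of the C1q genes, 5 lists of cell-type markers and 6 other complement genes, 1 point per library, with mutants (red, female mutant 3 open) above wild type (blue) in each row. The C1q mean and the microglia markers center near 0 in the 5 other mutants, and C1ra lies below 0 in every mutant; the C1ra point of female mutant 3 comes from 0 counts and depends on the prior count of 2.

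Markers of other glial, vascular and meningeal cells were read in the same way. Mutant minus wild type, over 12 libraries and then without female mutant 3, was 0.04 and 0.09 for 12 astrocyte markers, -0.02 and 0.004 for 9 endothelial markers, -0.12 and -0.04 for 8 mural cell markers, and -0.02 and 0.13 for 10 markers of fibroblasts and meninges. Border macrophage markers, of which 4 of 7 were tested, differed by 0.01 and 0.08, reactive astrocyte markers (7 of 8 tested) by -0.08 and -0.01, and activated microglia markers (6 of 8) by -0.12 and -0.15. C1ra relative to the fibroblast and meninges list was 1.30 lower in the 5 other mutants than in wild type, and relative to the endothelial list 1.17 lower. C4b relative to the astrocyte list was -2.85 ± 0.13 in those mutants and -3.33 ± 0.20 in wild type (SD), with ranges that met at -3.02. Masp1 relative to the astrocyte list was 0.60 lower in those mutants.

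Serping1 spread less around the fibroblast and meninges list than the list itself did. Its log2 level relative to that list was -0.46 ± 0.21 in mutants and -0.60 ± 0.08 in wild type (SD, n = 6 each). The SD of the list was 0.48 in mutants and 0.39 in wild type. The same held for the border macrophage list. Relative to it the SD of Serping1 was 0.34 in mutants and 0.17 in wild type, against 0.37 and 0.42 for that list. With the mean of the microglia markers as a covariate the log2 fold change of C1ra was -1.10 (edgeR adjusted p = 0.289), and with that of the fibroblast and meninges markers -1.27 (edgeR adjusted p = 0.562).

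Neuronal markers were abundant throughout, with a summed level of 7609 to 17850 CPM in mutants and 8283 to 9487 CPM in wild type. Their mean log2 CPM ran only from 9.11 to 9.26 in mutants and from 9.17 to 9.38 in wild type. It differed by -0.07 with and without female mutant 3. The differences were -0.04 and 0.02 for oligodendrocyte, -0.10 and 0.03 for oligodendrocyte precursor, -0.12 and -0.09 for choroid plexus and 0.03 and 0.25 for blood markers. Striatal neuron markers stood out among the lists. All 10 were lower in mutants, by 0.76 on average and by 0.86 without female mutant 3 (log2), with summed levels of 323.0 to 1437 CPM in mutants and 629.0 to 2262 CPM in wild type. Relative to this list, and without female mutant 3, C1ra was -4.96 ± 0.66 in mutants and -4.65 ± 0.63 in wild type (SD), Masp1 was -1.79 ± 0.67 and -2.14 ± 0.71, and C4b was -0.55 ± 0.71 and -1.98 ± 0.90. All 3 ranges overlapped, C1ra was 0.30 lower and Masp1 0.35 higher in those mutants by this measure, and the list itself varied more between mice of 1 genotype than these genes did. The part of this list in the levels of C1ra, Masp1 or C4b was not tested further.

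Of the other genes of the complement system, 49 symbols were listed, 48 had a row in the table and 31 passed the filter. Among them 0 passed edgeR's test in the genotype contrast, against 0.00555% of all genes. Of the 31, 18 were lower and 13 higher, with a median log2 fold change of -0.02 (16 lower and 15 higher without female mutant 3). By role, 4 of 5 tested proteases other than the members were higher, and 11 of 16 regulators and 3 of 5 receptors were lower, none past the test; without female mutant 3, 9 of 16 regulators were lower and the other splits were as before. DESeq2 and limma-voom with library weights called 0 of the listed genes as well, against 0.161% and 0.122% of all genes. An unadjusted p under 0.05 was met by 3 of the 31, against 3.96% of all genes, and these were the 3 of smallest p; without female mutant 3 there were 4, against 7.46%.

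All 3 encode regulators or relatives of regulators, and their values are given over 12 libraries. Sez6, a neuronal protein with complement control domains, had 48.4, 113 and 139.7 CPM in mutants, against 132, 159 and 201 CPM in wild type. The groups overlapped at 132 to 139.7 CPM, and the log2 fold change was -0.58 (SE 0.20; edgeR adjusted p = 0.950). That was the lowest fitted value among the 16 tested regulators. Without female mutant 3 the lowest among them was -0.43. Csmd3, a large membrane protein with CUB and sushi domains, had 43.1, 45.8 and 48.7 CPM in mutants, against 48.0, 51.0 and 56.5 CPM in wild type (log2 fold change -0.17, SE 0.07; edgeR adjusted p = 0.950). Clu, the gene of clusterin, which binds the terminal complement proteins, had 512, 545 and 624.8 CPM in mutants, against 470.4, 497 and 523 CPM in wild type (log2 fold change 0.15, SE 0.07; edgeR adjusted p = 0.950).

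Other parts of the cascade were close to undetectable in cortex. Each of 12 listed genes, among them Cfb of the alternative pathway, Mbl1 and Mbl2 of the lectin pathway and C6 and C9 of the terminal complex, had at most 12 counts over the 12 libraries together. A level under the limit that a count of 0 allows was not detectable at this depth.

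Genes with the pattern most like that of C1ra were found by the root mean square difference of centred log2 CPM, among genes of at least 1 CPM. Over 12 libraries they were Cyp11a1, at a difference of 0.319, then Dapk2, Slc11a1, Ackr2 and Nmnat3. Without female mutant 3 they were Mpeg1 (0.232), Fcgr2b, Cyp11a1, Cyp4f15 and Naip5, with Cyp11a1 in common. C1ra itself had an SD over libraries of 1.44 (log2) with female mutant 3, where it had 0 counts, and 0.676 without it. The list over 12 libraries therefore leans on a value that depends on the prior count. Mpeg1, which encodes a pore-forming protein of macrophages, averaged 13.1 ± 1.37 CPM in the 5 other mutants and 25.8 ± 2.19 CPM in 6 wild-type mice (SD). For the mean of the C1q genes, the 12 libraries gave Eno2 (0.0668), Phkg2, Brsk1, Tubb3 and Tbc1d20. The 11 libraries gave Sft2d2 (0.0352), Tesk1, Csnk2a1, Napa and Dffa, with 0 in common. The C1q mean itself had an SD over libraries of 0.467 (log2) with female mutant 3 and 0.103 without it. The first list therefore depends on that library. The second was drawn from 12935 candidates for a target that varied little. Eno2 and Tubb3 are known as neuronal genes, but no cell source is read from their place in the first list.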

How the data were processed

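Counts were deposited by the authors as raw whole-number read counts per gene and library. Per the submitters' processing notes, Trimmomatic 0.36, HISAT2 2.1.0, HTSeq 0.11 and Cufflinks (no version) were used with GRCm38.p6. For the annotation release, the strand setting and the treatment of reads with several matches: not given in the sources used here. GENCODE M21 named 54165 of 54232 identifiers, and no library had more than 0.0297% of its counts in the rest.

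Low genes were removed with filterByExpr over the 4 groups (3 mice each). Counts were scaled by TMM and tested by quasi-likelihood in edgeR 4.0.16 under R 4.3.3, on genotype plus sex, or on 1 mean per group for effects within sexes and the interaction. Adjusted p is Benjamini-Hochberg over the whole table, called at 0.05. Each SE is the absolute log2 fold change divided by the square root of edgeR's F statistic. It is tied to the p-value and is no separate estimate of spread. CPM use TMM-scaled totals, log2 CPM a prior count of 2, and floors 3 counts per library. Libraries of 1 group differed by more than counting noise. The procedure was also run on simulated counts with known changes, drawn for every library from a common gene profile. The departures of female mutant 3 in base composition and mitochondrial share were not simulated, so that run does not cover them.

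The 10 genes, the marker lists and the other complement genes were chosen with earlier results of these data known. The named genes were the 10, of the other complement genes those called or otherwise the 3 of smallest p, and the 5 genes most like C1ra and most like the C1q mean (mean of at least 1 CPM, spread over libraries at least 50% of the target's).

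Alternatives were DESeq2 1.42.0, limma-voom (limma 3.58.1) with and without library weights, RLE or total scaling, no filter, 1 CPM in 6 libraries, no sex term, 1 mean per group, marker covariates, another gene length and leaving out each library. DESeq2, the weighted fit and the microglia covariate without female mutant 3 were added after seeing the data.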

Additional observations from a re-analysis of the deposited data

Results flagged for a closer look

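Among the 20 groups of 6 values (10 genes in mutants and in wild type), 5 had a library far from the others of its group, where chance flags about 1 in 20 groups. Of these, 3 lay in female mutant 3, the library of lowest depth: C1qa at 2.71 CPM, C1qc at 6.19 CPM and C4b at 3.87 CPM, each the lowest of the 6 mutants. The other 2 were in wild type. C1qa was high in female wild type 5 at 25.5 CPM, and C1s1 was low in male wild type 8 at 0.817 CPM, which is the value that made the C1s1 ranges of mutants and wild type overlap. The cause of these departures was not tested.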

How the results depend on the processing

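Of the 10 genes, DESeq2 called 2 and limma-voom with library weights 2, against 0 with edgeR; without female mutant 3, DESeq2 called 3. Leaving out each library in turn gave 0 to 0 members called in the genotype, sex and interaction contrasts and 0 to 0 other complement genes. In those fits at most 0.0108%, 0.0433% and 0.00542% of all genes were called in the same contrasts, in that order. C1qa, at -0.16 over 12 libraries, reversed to 0.026 with library weights, 0.068 with the microglia covariate and 0.0016 without female mutant 3, and, without that library, to 0.0027 with DESeq2, 0.035 with weights and 0.019 with the microglia covariate. C3 reversed to -0.18 without female mutant 1. Leaving out 1 library gave C1qa -0.27 to 0.0016 and C3 -0.18 to 0.65. The cause was not tested. The other 8 genes kept their direction under 26 alternatives each, C1ra between -1.48 and -1.10, Masp1 between -0.69 and -0.50 and C4b between 0.31 and 0.60; edgeR adjusted p for C1ra without 1 library ran from 0.136 to 0.9998. C3 had no value under the filter of 1 CPM in 6 libraries. Scaling by library totals put the median log2 difference of all genes at -0.08 for genotype, 0.11 for sex and 0.24 for the difference of effects, and called 0 of the 10 genes in each. No paired analysis was possible because mice of different groups carry different numbers. Depth limits C1ra, C1s1, C3 and C3ar1 most, with at most 94 counts in a library.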
